A study of Mus musculus with 14 samples.

Results

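Cyclic nucleotide phosphodiesterases are described here from ChIP-seq peak lists of 3T3-L1 adipocytes, for 9 genes out of 21866 protein-coding genes: Pde3a, Pde3b, Pde4a, Pde4b, Pde4d, Pde7a, Pde7b, Pde8a and Pde10a. The genes were chosen as members of this enzyme family, with earlier results of these data known, and no threshold on a measurement was applied. For each gene, every listed peak was taken in the gene body and within 50 kb of it (the window of the gene). The 9 windows covered 4.35 Mb of the 2730 Mb reference, and the genes had 37 coding start sites, after start sites less than 500 bp apart were merged. 3T3-L1 is an established mouse fibroblast line that forms fat cells in culture, and the cells were used after 4 days of differentiation. They were left untreated (control) or exposed for 1 h to forskolin (FSK, 10 µM), an activator of adenylyl cyclase, to the cytokine TNFα (10 ng/ml), or to both (FSK/TNFα). Chromatin was precipitated with antibodies to the CREB coactivator CRTC2, to the NF-κB subunit p65, or to histone H3 acetylated at lysine 27 (H3AcK27), which marks active regulatory DNA. For each of the 12 pairings of antibody and treatment there was 1 library, so no value has a replicate check, no p-value is given, and intervals cover counting error only.

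Phosphodiesterases end the cAMP and cGMP signals by hydrolysing these second messengers. When cAMP is high, protein kinase A phosphorylates CREB and inhibits the salt-inducible kinases, so that CRTC2 loses its phosphates, enters the nucleus and joins CREB on cAMP response elements (CREs). The family differs in substrate: PDE3 enzymes and PDE10A hydrolyse both nucleotides, and the PDE4, PDE7 and PDE8 enzymes are specific for cAMP. Hydrolysis of cAMP by PDE3 enzymes is inhibited by cGMP. Many of these genes are long and have alternative promoters that encode long and short isoforms, and in fat cells PDE3B is the form through which insulin restrains lipolysis.

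The libraries held between 16438040 and 31807394 tags for CRTC2, between 20490261 and 26904732 for p65 and between 9832884 and 27966129 for H3AcK27, where the lowest total was that of the FSK library. Peaks of the control and TNFα libraries had been called against an input of untreated cells and those of the FSK and FSK/TNFα libraries against an input of FSK-treated cells, so folds over input are not compared between them. A peak under the calling threshold is not listed, and "not listed" below means only that. The cell label was checked with H3AcK27 within 1000 bp of start sites. In all 4 libraries it was found for 3 of 8 adipocyte markers (Fabp4, Pparg and Lpl) and for 2 of 3 preadipocyte markers (Pdgfra and Pdgfrb). The remaining preadipocyte marker, Dlk1, had it in the control, TNFα and FSK/TNFα libraries and not in the FSK library. For the other 5 adipocyte markers (Adipoq, Plin1, Cebpa, Cidec and Cd36) it was listed in no library. Among leukocyte markers Csf1r had it in all 4 libraries and Ptprc, Adgre1 and Cd3e in none, and none of 4 hepatocyte or neuron markers had it. Tags from a population of cells do not separate more cells with a mark from more mark per cell.

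Where 4 values follow each other, they stand for control, FSK, TNFα and FSK/TNFα in this order. In the 9 windows the CRTC2 lists held 1 peak under control conditions and 23, 25 and 27 peaks in the treated libraries. With lists of equal size the treated libraries held 10, 4 and 13, so that the TNFα count went from above that of FSK to below it. The lists as deposited came to 0.23, 5.29, 5.75 and 6.21 peaks per Mb of window, beside 1.9, 4.31, 7.16 and 5.2 peaks per Mb of the genome. The control peak lay at the promoter of Mtfr1, a neighbour of Pde7a. In each treated library 7 of the 9 genes had a CRTC2 peak in the window: Pde3b, Pde4a, Pde4b, Pde4d, Pde8a and Pde10a in all of them, with Pde7b in the FSK library and Pde7a in the TNFα and FSK/TNFα libraries. For p65 the windows held 0, 2, 3 and 8 peaks, at 0, 0.46, 0.69 and 1.84 per Mb beside 0.0785, 1.09, 0.882 and 1.55 in the genome. H3AcK27 regions numbered 93, 90, 95 and 96, at 21.4, 20.7, 21.8 and 22.1 per Mb beside 19.2, 14.2, 18.3 and 15.5 in the genome. Pde4d, the longest gene, held 43, 43, 45 and 37 of them, and Pde3a held 2, 2, 3 and 2. Lists of equal size held 62, 90, 65 and 81 H3AcK27 regions in the windows, so that the FSK count went from the lowest to the highest. The median input tags per kb in the H3AcK27 regions of the windows ranged, by gene and library, from 0.295 to 1.87 times the genome median.

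**Figure D1:**
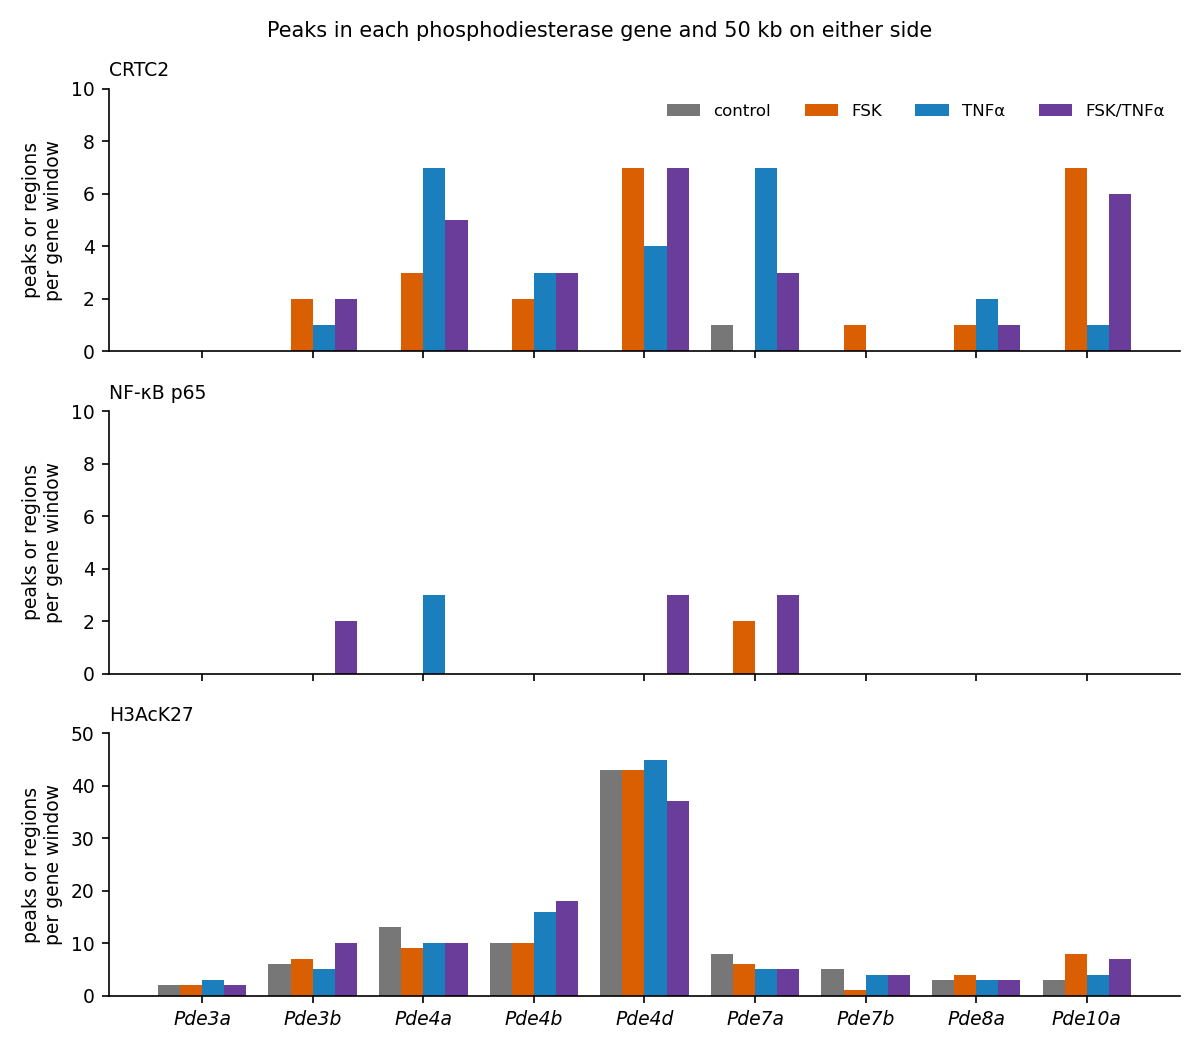
Number of listed CRTC2 peaks, p65 peaks and H3AcK27 regions (vertical axes) in each gene and 50 kb on either side, with 1 bar per library, coloured by treatment. The control CRTC2 library has 1 peak, in the window of Pde7a, and Pde4d holds the most H3AcK27 regions.

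The first question was which start sites carried a peak. Of the 37 start sites of the 9 genes, 10 lay in an H3AcK27 region of at least 1 library and 5 in a region of every library, 4 had a CRTC2 peak between 1000 bp upstream and 100 bp downstream, and 1 had a p65 peak. H3AcK27 covered 8, 5, 6 and 8 of the 37. Over all 34351 coding start sites the shares were 38.1%, 32.7%, 38% and 35.4%. CRTC2 was listed at 0, 2, 2 and 2 of the 37 start sites in the same order, beside 7.97%, 18.8%, 27.9% and 20.1% of all start sites. p65 was listed at 0, 0, 0 and 1, beside 0.0699%, 0.39%, 0.413% and 0.67%. The CRTC2 start sites were those of Pde10a-204 in both forskolin libraries, Pde4b-203 with FSK, Pde7a-202 with TNFα and FSK/TNFα and the second Pde7a site with TNFα. Counted by gene, 0, 2, 1 and 2 of the 9 genes had CRTC2 at a start site, beside 11.8%, 27.4%, 39.9% and 29.1% of all genes.

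When CRTC2 peaks of the 4 libraries that overlapped by at least 1 bp were merged, the windows held 55 loci. Of these, 11 were listed in both forskolin libraries and in neither other library, 9 with FSK only, 18 with TNFα only, 10 with FSK/TNFα only and 3 with TNFα and FSK/TNFα, which leaves 4 with other patterns. Among all 33769 CRTC2 loci of the genome, 6.42% had the pattern of both forskolin libraries alone, 10.8% were listed with FSK only, 33.6% with TNFα only and 16.5% with FSK/TNFα only. The loci listed in both forskolin libraries belonged to Pde10a (6 loci), Pde4d (2), Pde3b (2) and Pde4b (1). Their highest scores over the libraries ran from 11 to 65 with a median of 26, beside a median of 19 for all loci of this pattern in the genome. A sequence TGACG, the core of a CRE, was found on either strand within the central 200 bp of 13 of the 55 loci, beside 17.1% of all CRTC2 loci. It was found at 7 of the 11 loci of both forskolin libraries and at 1 of the 18 loci of TNFα alone. Over the genome the shares for these patterns were 41.1% and 9.52%. The AP1 sequences TGACTCA or TGAGTCA were found at 2 of the 55 loci, beside 10.4% of all CRTC2 loci, and the NF-κB consensus at none, beside 0.252%.

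**Figure D2:**
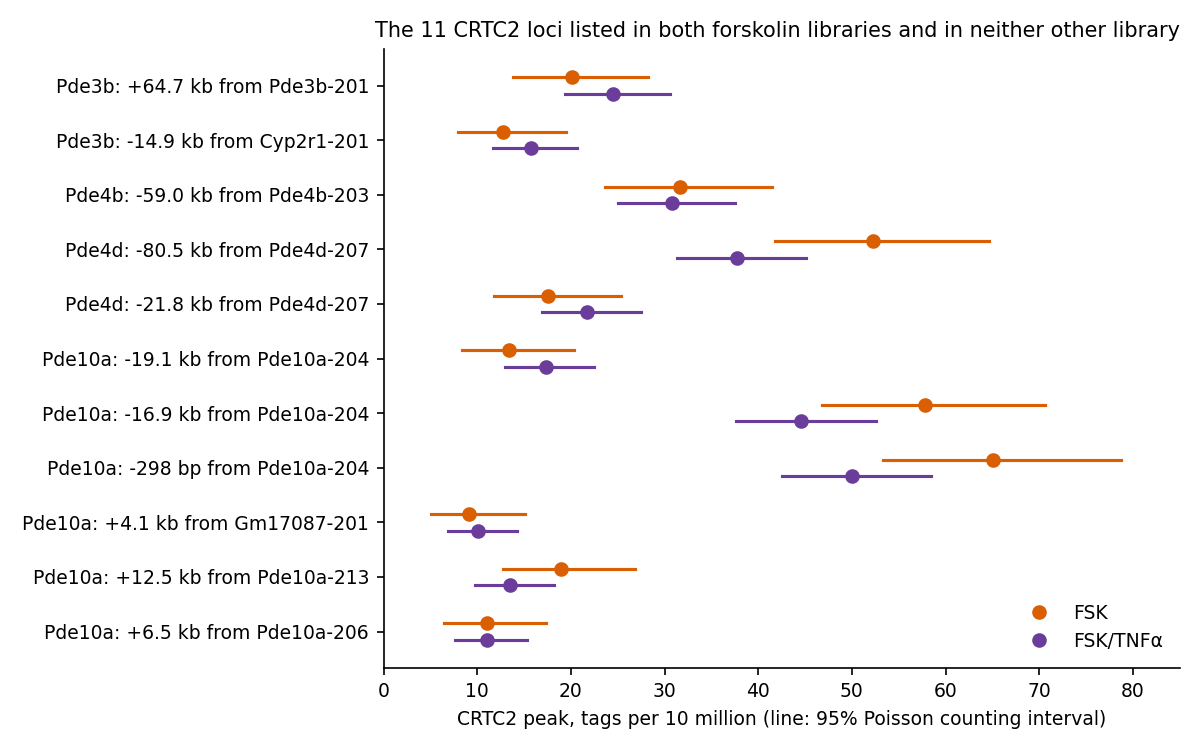
Normalized CRTC2 tags (horizontal axis) at the 11 loci of the windows listed in both forskolin libraries and in neither other library, named by gene and by distance of the locus midpoint from the nearest coding start site. Points are single libraries and lines are 95% Poisson intervals, and the FSK and FSK/TNFα intervals of each locus overlap.

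Among the PDE3 genes, Pde3b (ENSMUSG00000030671, chromosome 7, 114415281 to 114539251, plus strand) had CRTC2 in an intron and not at its start site. The locus with the highest score, 26, lay 64.7 kb downstream of the start site, from 114479906 to 114480087. CRTC2 was not listed there in control cells, reached 20.1 normalized tags with FSK (95% counting interval 13.8 to 28.2), was not listed with TNFα and reached 24.5 with FSK/TNFα (19.4 to 30.6). Normalized tags are tags of a peak per 10000000 tags of its library. The H3AcK27 region around this locus held 46.7, 166, 11.1 and 84.0 normalized tags. Both libraries with FSK were thus above both libraries without it. Its width was 2538, 3489, 632 and 3228 bp in the same order, so that the tags per kb of region were 18.4, 47.5, 17.6 and 26.0. The CRE core lies at the midpoint of the locus, in capitals here, with 10 flanking bases on either side of it.

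Pde3b intron, chr7:114479984-114480008, plus strand: aaaacctcatTGACGtaattgaact

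A region 50.8 kb upstream of Pde3b, at the edge of the window, had H3AcK27 tags of 84.4, 185, 38.6 and 89.8. The FSK/TNFα value was only slightly above that of control. Per kb of region the tags were 33.3, 57.4, 25.9 and 31.5, with FSK/TNFα below control. Another region in the gene was listed in the forskolin libraries alone, with 47.8 tags with FSK and 36.1 with FSK/TNFα. The remaining CRTC2 loci of the Pde3b window lay 14.1 kb and 14.9 kb upstream of its neighbour Cyp2r1, inside a broad H3AcK27 region of 768, 908, 679 and 658 tags. The nearer one was listed with TNFα (14 tags) and the farther one with FSK (12.8) and FSK/TNFα (15.7). Neither has a CRE core, and the farther one contains an AP1 sequence. At the start site of Pde3b itself no peak of any antibody was listed, and the nearest H3AcK27 region was 24468 bp away in control cells and at least 49234 bp away in the other libraries. With FSK/TNFα, 2 p65 peaks of 14.2 and 6.83 normalized tags were listed in the gene, neither within an H3AcK27 region. Pde3a (ENSMUSG00000041741, chromosome 6, 141249269 to 141507448, plus strand), the family member best known from heart and platelets, had no CRTC2 or p65 peak in its window. It had 3 weak H3AcK27 loci of 6.44 to 19.3 tags, at least 82714 bp from its start site.

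Pde10a (ENSMUSG00000023868, chromosome 17, 8525372 to 8986648, plus strand), which encodes an enzyme abundant in the striatum, held the 2 CRTC2 loci with the highest scores of all 9 windows. The locus at its first start site (Pde10a-204) lay 298 bp upstream. CRTC2 was not listed there in control cells, reached 65.1 normalized tags with FSK (95% counting interval 53.3 to 78.7), was not listed with TNFα and reached 50 with FSK/TNFα (42.5 to 58.4). With FSK its score of 65 ranked 61 among 11749 peaks, and the input held 1.1 tags at the same place. The FSK/TNFα level was 0.768 times the FSK level (counting interval 0.597 to 0.991), beside a median of 0.964 over the 6457 loci of the genome listed in both libraries. The 200 bp centred on this locus contain the CRE core once on each strand, in capitals here. The match on the minus strand appears as its reverse complement.

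Pde10a start site, chr17:8524975-8525174, plus strand: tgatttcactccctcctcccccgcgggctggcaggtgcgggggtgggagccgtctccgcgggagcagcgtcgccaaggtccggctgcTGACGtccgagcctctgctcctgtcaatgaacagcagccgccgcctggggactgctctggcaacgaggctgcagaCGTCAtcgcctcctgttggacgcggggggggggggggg

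Neither the start site nor the CRTC2 locus was covered by H3AcK27 in any library. With FSK, a region of 45.8 tags ended before the CRTC2 locus (8523378 to 8524902) and a region of 24.4 tags began after the start site (8525739 to 8526712), so that the CRTC2 locus lay in the gap between them. In the control, TNFα and FSK/TNFα libraries the nearest region was 15813, 15931 and 15674 bp from the start site.

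A locus 16.9 kb upstream of the same start site (8508363 to 8508542) had CRTC2 tags of 57.8 with FSK (46.8 to 70.6) and 44.6 with FSK/TNFα (37.6 to 52.6) and was not listed in the control and TNFα libraries. A weaker locus 19.1 kb upstream had 13.4 and 17.3 tags. Together they fall in an H3AcK27 locus with 72.1, 433, 39.7 and 244 normalized tags, of which the control and TNFα regions reach the stronger CRTC2 locus and not the weaker one. Its width was 1443, 6075, 1006 and 4279 bp, and the tags per kb were 50, 71.3, 39.5 and 57.0. The FSK and FSK/TNFα regions were thus wider as well as richer in tags. The stronger locus contains the CRE core in 2 places, both on the plus strand, and the weaker one in 1.

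Pde10a upstream, chr17:8508353-8508552, plus strand: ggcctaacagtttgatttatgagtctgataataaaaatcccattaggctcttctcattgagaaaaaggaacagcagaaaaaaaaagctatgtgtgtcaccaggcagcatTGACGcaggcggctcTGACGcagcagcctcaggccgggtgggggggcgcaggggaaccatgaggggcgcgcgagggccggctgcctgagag
Pde10a upstream, weaker locus, chr17:8506248-8506272, plus strand: gctgcagcaaTGACGcaagtgctct

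In the gene body, 3 more CRTC2 loci were listed with FSK and FSK/TNFα and in neither other library: 12.5 kb downstream of Pde10a-213 (18.9 and 13.5 tags), 6.5 kb downstream of Pde10a-206 (11 and 11) and 4.1 kb downstream of the start site of Gm17087, a predicted gene inside Pde10a (9.13 and 10.1). None of these 3 had a CRE core in its window. The locus near Pde10a-206 lay in an H3AcK27 region of 46.0, 90.5, 42.6 and 61.0 tags. The last CRTC2 locus of the window was at the start site of 1700010I14Rik, beyond the end of Pde10a, with 7.91 tags with FSK and 12.8 with TNFα. The sum of H3AcK27 tags over the Pde10a window was 136, 684, 127 and 386. No p65 peak was listed in it.

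**Figure D3:**
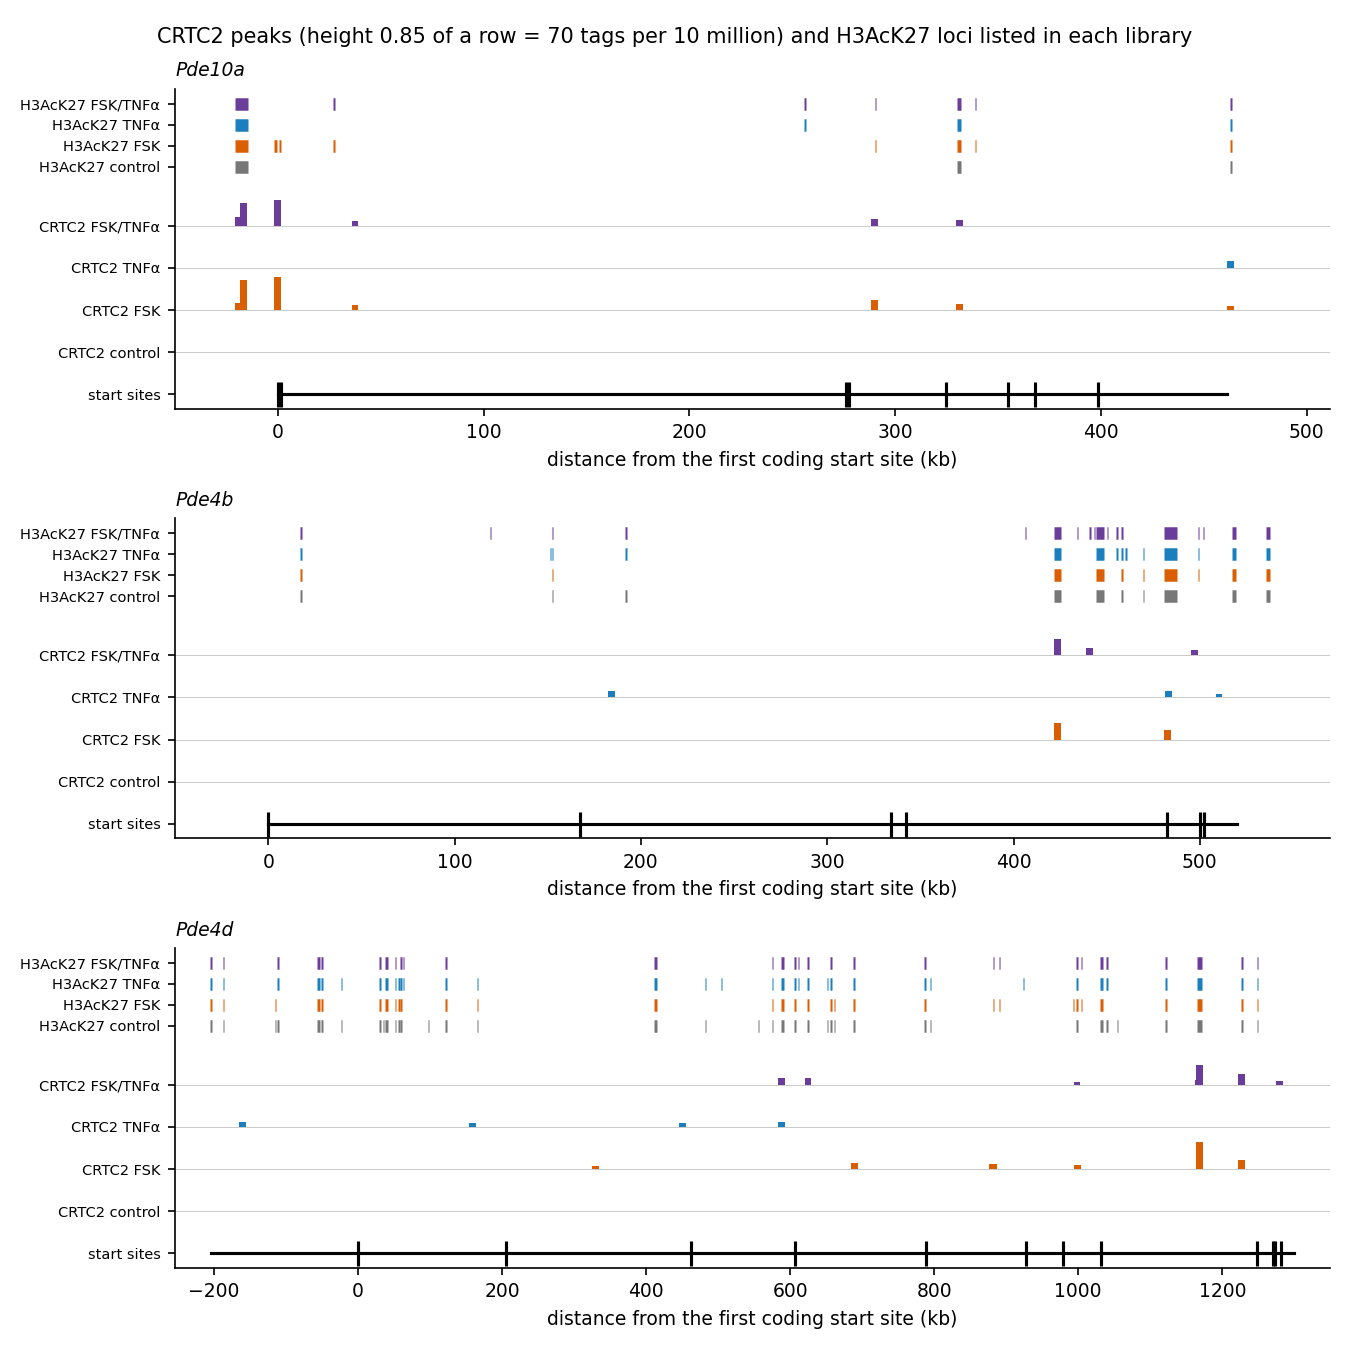
CRTC2 peaks and H3AcK27 loci of Pde10a, Pde4b and Pde4d by distance from the first coding start site in kb (horizontal axis), with start sites as ticks on the gene. In each CRTC2 row 1 bar is 1 locus and its height is proportional to the normalized tags of that library, and H3AcK27 bars show the joint extent over the 4 libraries of each locus listed in that library. The tallest CRTC2 bar of each gene recurs in the FSK and FSK/TNFα rows, at 65.1 and 50 tags in Pde10a, 31.6 and 30.8 in Pde4b and 52.3 and 37.7 in Pde4d.

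Pde4d (ENSMUSG00000021699, chromosome 13, 108449948 to 109953461, plus strand) encodes a cAMP-specific enzyme and has 12 coding start sites. CRTC2 was listed at none of them. Its 15 CRTC2 loci were all in introns, of which 2 were listed in both forskolin libraries, 5 with FSK only, 3 with TNFα only, 4 with FSK/TNFα only and 1 with TNFα and FSK/TNFα. The locus with the highest score (54) lay 80.5 kb upstream of Pde4d-207, from 109822505 to 109822682. CRTC2 was not listed there in control cells, reached 52.3 tags with FSK (41.8 to 64.6), was not listed with TNFα and reached 37.7 with FSK/TNFα (31.3 to 45.1). The ratio of FSK/TNFα to FSK was 0.721 (counting interval 0.542 to 0.963). H3AcK27 at this locus amounted to 159, 723, 118 and 409 tags in regions of 3081, 6886, 2787 and 5452 bp. Per kb of region these were 51.7, 105, 42.5 and 75 tags. It contains a palindromic CRE, in which the core is read on both strands.

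Pde4d intron, chr13:109822494-109822693, plus strand: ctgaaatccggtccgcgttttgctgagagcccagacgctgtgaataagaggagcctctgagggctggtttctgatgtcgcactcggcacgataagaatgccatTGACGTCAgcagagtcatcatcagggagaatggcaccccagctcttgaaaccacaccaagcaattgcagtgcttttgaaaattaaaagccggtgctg

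A second intronic locus, 21.8 kb upstream of Pde4d-207 (109881201 to 109881433), had CRTC2 tags of 17.6 with FSK and 21.7 with FSK/TNFα. H3AcK27 there was 26.1, 192, 16.4 and 133 tags, in regions of 1000, 2868, 765 and 2794 bp. The ratio of FSK to control, 7.36, was the highest of the 62 H3AcK27 loci of the 9 windows that were listed in both libraries. It contains the CRE core once on each strand.

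Pde4d intron, second locus, chr13:109881377-109881401, plus strand: tcaatggctcTGACGagtcactctt
Pde4d intron, second locus, chr13:109881350-109881374, minus strand: tccatggtgcTGACGaatacaatga

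The other 13 CRTC2 loci of Pde4d had between 6.29 and 14.1 tags and scores of at most 20. A locus 18 kb upstream of Pde4d-218 was listed with TNFα (9.82) and FSK/TNFα (13.8), and one 18.2 kb downstream of it, with a CRE core, was listed with FSK/TNFα alone (14.1). The latter lay in an H3AcK27 region of 13.4, 76.3, 15.7 and 38.1 tags. H3AcK27 covered 3 start sites in every library. At Pde4d-201 the regions held 136, 202, 120.5 and 114 tags, at Pde4d-218 they held 81.5, 94.6, 72.6 and 118.5, and at Pde4d-207 they held 19.9, 27.5, 10 and 16.7. Pde4d-205 was covered in control cells alone (88.8 tags), although regions within 1000 bp were listed in the other 3 libraries. Pde4d-213 was covered with FSK/TNFα alone (8.94 tags), and the same library had a p65 peak of 10.7 tags 624 bp upstream of it, the one p65 peak at a start site of the 9 genes. Around the first base of the gene, where a transcript without coding sequence starts, a region held 122, 53.9, 61.5 and 25.3 tags.

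Pde4b (ENSMUSG00000028525, chromosome 4, 102087543 to 102607259, plus strand), another cAMP-specific family member, had CRTC2 at 1 of its 7 start sites. At Pde4b-203, 47 bp upstream, CRTC2 was listed with FSK alone (18.9 tags, 12.8 to 26.8). With TNFα a separate peak of 12.1 tags lay 471 bp downstream of the same start site. H3AcK27 over this start site was 130.1, 248, 181.6 and 339 tags, in regions of 4250, 4314, 3973 and 6667 bp. All 3 treated libraries were above the control library. The start site shared by Pde4b-202 and Pde4b-204 was covered with FSK/TNFα alone, by 6.61 tags. The CRTC2 locus with the highest score, 41, was intronic, 59.0 kb upstream of Pde4b-203 (102510995 to 102511182). It had 31.6 tags with FSK (23.6 to 41.5) and 30.8 with FSK/TNFα (25 to 37.5), a ratio of 0.974, and was not listed in the control and TNFα libraries. H3AcK27 there was 38.4, 129, 53.6 and 137 tags. Like the strongest Pde4d locus, it contains a palindromic CRE.

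Pde4b intron, chr4:102511079-102511103, plus strand: gttatgccatTGACGTCAatggagt

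The other 4 CRTC2 loci of Pde4b were listed in 1 library each, 2 with TNFα and 2 with FSK/TNFα, at 6.8 to 13.5 tags. Of the 8 H3AcK27 loci of the 9 windows that had at least 2 times the control tags with TNFα, out of 74 listed in both libraries, 4 belonged to Pde4b. Per kb of region none of these 4 reached 2 times the control level, with 13 against 15.3, 13 against 20.4, 27.2 against 37.9 and 18.4 against 32 tags in the control and TNFα libraries. Over the genome 5.79% of loci had at least 2 times the control tags with TNFα, and the share per kb of region was not computed. Tags at least 2-fold lower than in the control library were found at 8 of the 74 loci, none of them in Pde4b, and at 7.68% of loci of the genome. The Pde4b loci included one 36.2 kb upstream of Pde4b-203, with 63.8, 81.4, 148 and 168 tags, and one beyond the end of the gene, with 12.3, 40.7, 66.2 and 66.1. No p65 peak was listed in the Pde4b window under any treatment. The sum of H3AcK27 tags in the window was 319, 588, 605 and 867.

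Pde4a (ENSMUSG00000032177, chromosome 9, 21165714 to 21213248, plus strand) lies in a dense stretch of genes, and 5 of the 11 CRTC2 loci of its window were at promoters of Tyk2, Cdc37 or Keap1. The locus with the highest score in the window, 18, was at the promoter of Cdc37, with 8.52 tags with FSK, 17.8 with TNFα and 11.9 with FSK/TNFα. In Pde4a itself, one locus 2.4 kb upstream of Pde4a-203 was listed in all 3 treated libraries, with 10.3, 11.3 and 7.55 tags, whose counting intervals overlapped. Another 2 loci, 2.0 and 2.5 kb downstream of Pde4a-202, were listed in 1 library each, with 6.8 tags with TNFα and 8.49 with FSK/TNFα. No CRE core was found at any CRTC2 locus of this window. H3AcK27 covered the start site of Pde4a-202 with 687 tags under control conditions, 640.4 with TNFα and 495 with FSK/TNFα. With FSK a region of 423 tags began 958 bp downstream of it. The 3 p65 peaks of the window, all with TNFα (12.3 to 17.1 tags), lay outside Pde4a.

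Among the cAMP-specific PDE7 genes, Pde7a (ENSMUSG00000069094, chromosome 3, 19223108 to 19311322, minus strand) had CRTC2 at both of its start sites, and no CRTC2 peak of the FSK library in its window. At Pde7a-202 the tags were 8.69 with TNFα (5.51 to 13.0) and 10.7 with FSK/TNFα (7.4 to 14.9), and at the start site shared by Pde7a-201 and Pde7a-203 they were 9.82 with TNFα. The peak at the shared site had a score of 8, the lowest in the CRTC2 list with TNFα. With lists of equal size, neither start site kept its TNFα peak. The CRTC2 library with FSK held 16438040 tags, beside 26472345 with TNFα. H3AcK27 at Pde7a-202 was 599.6, 484, 598 and 427 tags, and at the other start site a region was listed in control cells alone (88 tags). Of the 8 CRTC2 loci of the window, 5 were listed with TNFα only, and none had a CRE core. The locus with the highest score, 29, was at the promoter of Mtfr1, with 14.3 tags in control cells, 26.4 with TNFα and 27 with FSK/TNFα. The window also held 5 p65 peaks, 2 with FSK (17.6 and 24.5 tags, in introns) and 3 with FSK/TNFα. Pde7b (ENSMUSG00000019990, chromosome 10, 20398004 to 20725078, minus strand) had a single CRTC2 locus, 47.1 kb upstream of its first start site, at 11 tags with FSK (6.49 to 17.3), where H3AcK27 was listed in control cells (9.78 tags) and with FSK/TNFα (19.8 tags). Its 200 bp contain a CRE core. Neither start site of Pde7b lay in an H3AcK27 region of any library, and the nearest region was at least 45907 bp away.

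Pde8a (ENSMUSG00000025584, chromosome 7, 81213596 to 81334533, plus strand), which encodes a high-affinity cAMP-specific enzyme, had no CRTC2 or p65 peak in the gene. The start site of Pde8a was outside H3AcK27 regions in all 4 libraries, at a distance of at least 16590 bp. A region 31.2 kb upstream held 352, 225, 330 and 155 tags.

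The next question was whether H3AcK27 was also different at the CRTC2 loci of the forskolin libraries. Of the 11 loci listed in both forskolin libraries and in neither other library, 9 overlapped an H3AcK27 locus by at least 1 bp. There were 8 such H3AcK27 loci, of which 7 were listed in every library. At these 7 the ratio of FSK to control tags ranged from 1.18 to 7.36 with a median of 3.55, and 5 were at least 2. The corresponding ratio of FSK/TNFα to TNFα ranged from 0.968 to 8.13 with a median of 3.45, and 5 were at least 2. Over the genome, the 1783 H3AcK27 loci at CRTC2 loci of this pattern had medians of 1.12 and 1.02, and 15% and 8.52% of them reached 2. Part of the difference was in width, since the median ratio per kb of region at the 7 loci was 2.03 for FSK over control and 1.46 for FSK/TNFα over TNFα. Per kb of region, the 1783 loci of the genome had medians of 1.21 and 1.06. The ratio of TNFα to control tags at the 7 loci of the windows ranged from 0.238 to 1.4. Across all H3AcK27 loci of the 9 windows, 13 of 62 had at least 2 times the control tags with FSK, beside 4.92% of 29386 loci of the genome. These 13 lay in the windows of Pde4d (5 loci), Pde4b (4), Pde3b (2) and Pde10a (2). Pde3a, Pde4a, Pde7a and Pde8a had none, and Pde7b had no locus listed in both libraries. At least 2 times the TNFα tags with FSK/TNFα were found at 8 of 66, beside 2.66% of 30412. These too lay in the windows of Pde4d, Pde4b, Pde3b and Pde10a alone. Loci at least 2-fold lower numbered 8 of 62 for FSK against control, beside 22.7% over the genome, and 11 of 66 for FSK/TNFα against TNFα, beside 21.4%. The median ratio of FSK to control over the genome was 0.776 (-0.37 on the log2 scale), and it was 1.02 in the windows. Per kb of region these medians were 1.06 and 1.3. The depth of the H3AcK27 FSK library was the lowest of all, and its part in these ratios was not tested.

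**Figure D4:**
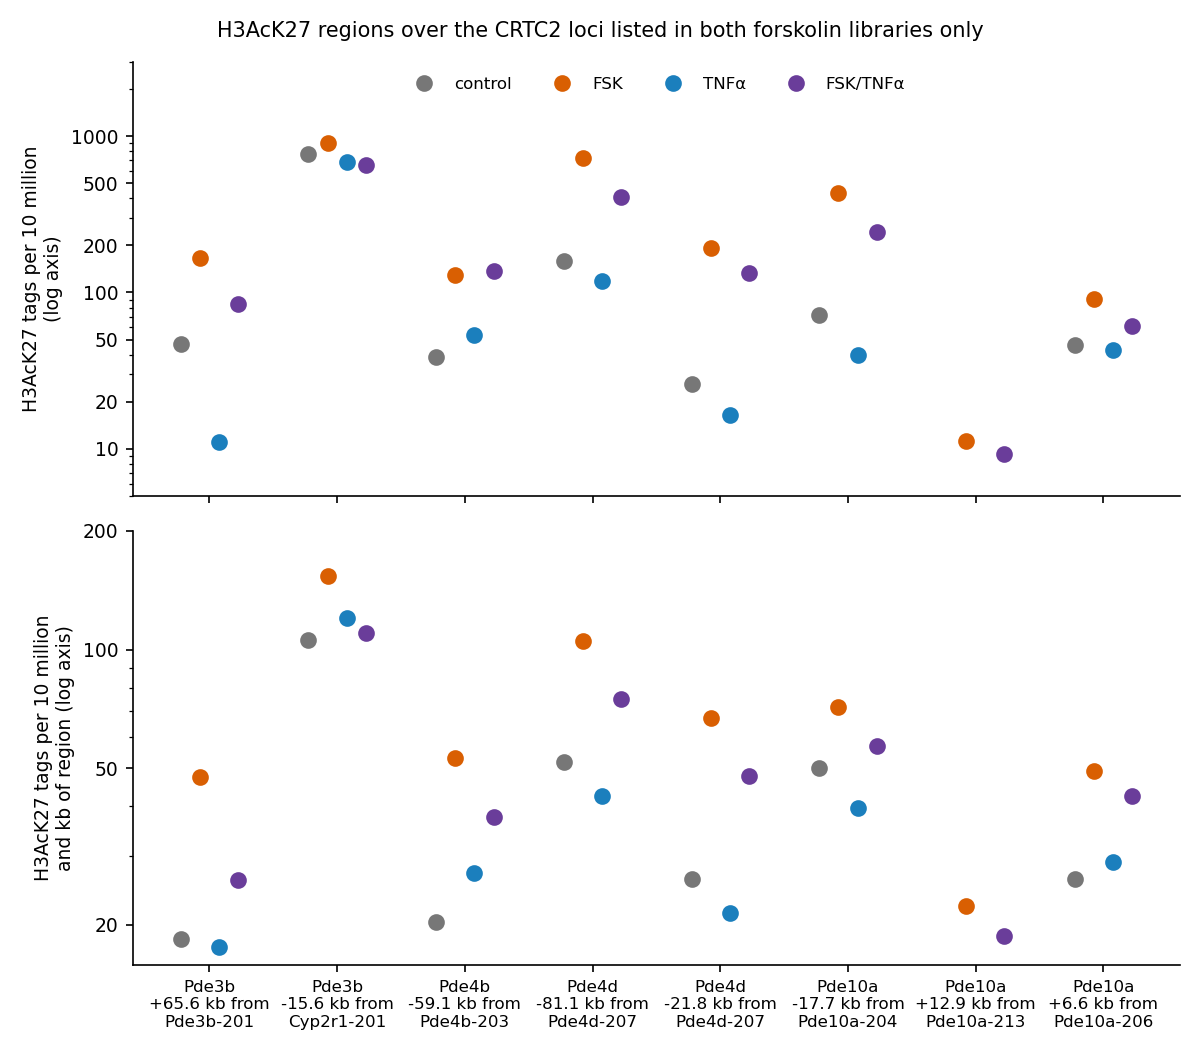
Normalized H3AcK27 tags (top) and normalized tags per kb of region (bottom), on log axes, at the 8 H3AcK27 loci that overlap a CRTC2 locus of both forskolin libraries alone, with 1 point per library. In 6 of the 7 loci listed in every library, both forskolin points lie above both others in the top panel, and the region near Cyp2r1 is the exception.

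For p65, all 13 p65 peaks of the windows had scores of 7 to 9, and none was listed in a second p65 library, beside 3.24% of the 9469 p65 loci of the genome that were. Of the 13, 3 lay in an H3AcK27 region of any library and none contained the NF-κB consensus. The same shares over all p65 loci of the genome were not computed, so neither count is read as particular to these peaks. No p65 peak of the windows overlapped a CRTC2 peak of any treatment. Over the genome, 3 of 5188, 65 of 11749, 122 of 19527 and 476 of 14171 CRTC2 peaks overlapped a p65 peak of the same treatment, beside 0 of 1, 23, 25 and 27 in the windows. The closest pair in the windows, near Pde4a with TNFα, was 1020 bp apart, and in Pde4d with FSK/TNFα the closest was 4811 bp apart.

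Other genes of the cAMP pathway were counted in the same way, by a CRTC2 peak at a start site. Of 15 other phosphodiesterase genes, 0, 0, 2 and 2 had one (Pde1b and Pde6d with TNFα, Pde6d and Pde6h with FSK/TNFα). None of 10 adenylyl cyclase genes, which make cAMP, had one in any library. Of 6 genes for protein kinase A subunits, 1, 4, 6 and 5 had one, and all 6 had H3AcK27 over a start site in every library. Over all 21866 protein-coding genes, CRTC2 was listed at a start site for 11.8%, 27.4%, 39.9% and 29.1%. H3AcK27 lay over a start site for 49.5%, 43.8%, 49.5% and 46.8% of them. The catalytic subunit gene Prkaca had 15.8, 8.31 and 8.17 tags with FSK, TNFα and FSK/TNFα, and Prkacb had 11 in each of the 3. The regulatory subunit gene Prkar1a had 8.47, 21.9, 25.7 and 28 tags, and Prkar2b had 11 with FSK and 7.93 with TNFα. The 65.1 tags at the Pde10a start site with FSK were above each of these.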

How the data were processed

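ChIP-seq peak lists of 12 libraries were used, with 1 library for each of 3 antibodies and 4 treatments, grouped by the sample labels. Of the 2 inputs, only the tags reported in the lists were used. According to the submitters' processing notes the authors used STAR, HOMER and mm10, whose versions are not given in the sources used here. Per the file headers, findPeaks of HOMER was run on each library in factor mode (CRTC2, p65; false discovery rate 0.001) or histone mode (H3AcK27), with at least 4-fold more tags than input at p 0.0001. The deposited signal of a peak is its tags scaled to 10000000 tags per library. The deposited score uses 1 tag at most from any position, without input correction, and the deposited fold is the ratio of tags to input tags. The fold serves only to filter peaks within a list. Scores rank peaks within a list and pick the highest peak of a locus or window over the lists, whose depths differ. Repeated tags are not independent, and a shallower library lists fewer weak peaks.

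Start sites were taken from coding transcripts of GENCODE (mouse release M21, GRCm38), the same build as mm10, and 0 peaks ran past a chromosome end. Sequences were read from the RefSeq GRCm38 genome. Peaks were joined into loci when they overlapped by 1 bp. At each locus the peak with the highest score in a library gave its CRTC2 tags, and H3AcK27 tags were summed over the regions of a library in a joined locus. In the 200 bp around a locus midpoint, exact matches on either strand were sought to the CRE core TGACG and its palindrome TGACGTCA. The AP1 search used TGACTCA or its reverse complement TGAGTCA, and NF-κB its usual consensus. A palindromic CRE contains the core on both strands. Tag intervals are exact Poisson and ratio intervals Clopper-Pearson, at 95%, for counting error. No test was made. The members, gene lists and rules were chosen with earlier results of these data known. Named in full were all members, their start sites with a peak, the locus with the highest CRTC2 score in each window except that of Pde8a, loci with overlapping CRTC2 and p65 peaks, genes of the other lists with CRTC2 at a start site with FSK, and the sequences of the 3 non-exonic loci with a CRE and the highest scores. Other sequences and loci were chosen after their values were seen. The CRTC2 loci in the flank of Pde8a are counted in the totals and not reported here. Alternatives covered the window, promoter, start site and merging rules, an 8-fold threshold, lists of equal size, tag scaling and the motif rule. The overlap, merging and start-site code was tested on simulated data. Python 3.11.15, numpy 2.4.6, pandas 2.3.3, scipy 1.17.1, samtools 1.23.1, pysam 0.24.0 and matplotlib 3.10.9 were used.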

Additional observations from a re-analysis of the deposited data

How the results depend on the processing

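Each combination had 1 library, so leaving out a replicate was not possible. No paired analysis was possible because the result of no comparison comes from a test and each group has 1 sample. Of 164 values recomputed under the alternatives, 129 stayed close to the main value and 35 moved. Close meant within 1.5 times the main count or within the counting interval of a ratio. This does not compare libraries, whose order turned with lists of equal size for CRTC2 and H3AcK27 counts. The ratio of FSK/TNFα to FSK at the Pde4b intronic locus went from 0.974 to 1.01 when scaled by the median of shared loci. In the gene bodies alone, the windows kept 0 CRTC2 peaks in control cells, 14 with FSK and 14 with TNFα, and 0 p65 peaks with TNFα. With 10 kb flanks the counts for CRTC2 in control cells and p65 with TNFα were 0. Without peaks at promoters of other genes the CRTC2 count in control cells was 0. At 8-fold over input, the windows held 16 CRTC2 peaks with TNFα and 15 with FSK/TNFα, and 30, 30, 37 and 25 H3AcK27 regions in control, FSK, TNFα and FSK/TNFα cells. With lists of equal size, they held 10, 4 and 13 CRTC2 peaks with FSK, TNFα and FSK/TNFα and 3 p65 peaks with FSK/TNFα. For start sites, the 8-fold threshold gave 1 with CRTC2 with TNFα and 1 with FSK/TNFα, and 3, 2, 3 and 4 with H3AcK27. Lists of equal size gave 0 and 1 with CRTC2 with TNFα and FSK/TNFα, 0 with p65 with FSK/TNFα and 5 with H3AcK27 in control cells. With 1000 bp on either side, 10 start sites had H3AcK27 with FSK. Loci of both forskolin libraries only numbered 7 at 8-fold and loci of FSK/TNFα only 5. With lists of equal size there were 2 loci of FSK only, 2 of TNFα only and 3 of FSK/TNFα only. The CRE core was in 20 loci in 400 bp and the palindromic CRE in 3 loci in 200 bp. What produced these shifts was not tested. Counts of overlapping CRTC2 and p65 peaks in the windows were 0 under every alternative.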

Other observations

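The strongest CRTC2 loci of Pde4b and Pde4d, both intronic and both with a palindromic CRE, resembled each other around that element. Aligned on the CRE without gaps, 24 of the 50 flanking bases were identical, 25 on each side. Among the 61 pairings of CRE matches from different loci listed in both forskolin libraries only, this was the highest number, and the next was 23, between the second Pde4d locus and the upstream Pde10a locus, with a median of 15. The comparison was made after the sequences had been seen, and no test of it was made. Both sequences are shown with the bases that are identical between them in capitals.

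Pde4b intron, chr4:102511064-102511121, plus strand: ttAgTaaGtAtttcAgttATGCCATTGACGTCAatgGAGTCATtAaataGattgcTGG
Pde4d intron, chr13:109822572-109822629, plus strand: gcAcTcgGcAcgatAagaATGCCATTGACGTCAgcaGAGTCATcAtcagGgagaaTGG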
